A study of Mus musculus with 10 samples.

Results

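The Id genes Id1, Id2, Id3 and Id4 encode the inhibitors of DNA binding, small proteins that carry a helix-loop-helix domain without the basic region that contacts DNA. They pair with E proteins such as E2a, the product of Tcf3, and the pairs cannot bind the E-box sites at which E proteins activate B-cell genes. Id genes are typical targets of BMP and Smad signalling and are kept low while B-cell precursors commit. H3K27me3 is the trimethyl mark that polycomb repressive complex 2 (PRC2) places on histone H3, and it is usually found at genes that are held silent. The 4 genes were taken by symbol from the GENCODE annotation of mm9, which lists 37310 genes, 22380 of them protein-coding. For each gene, the bases inside H3K27me3 peaks were counted from 5 kb upstream of the transcription start site (TSS) to the gene end. The windows of the 4 Id genes are 6.16 to 7.61 kb long.

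H3K27me3 had been mapped by ChIP-seq in 5 mouse B-cell lymphoma lines, all Eμ-Myc, Cdkn2a-/- and of the C57BL/6J strain, in which an immunoglobulin heavy chain enhancer drives Myc in B-lineage cells. The parental line came from a lymphoma, and the 4 resistant lines R100, R500, R1000 and R4000 were taken from it after 10, 18, 23 and 37 days of culture with mafosfamide, a DNA alkylator, at doses that reached 100, 500, 1000 and 4000 nM. These days come from a figure legend of the study, whose methods give the whole escalation as 34 days. The study calls the resistant lines sub-clones, and the cells for ChIP-seq were grown without the drug. The age of the mouse is not given in the sources used here. The 5 RRBS samples were not analysed here. The study describes biological replicates of the ChIP-seq. The files used here hold 1 peak list for each line, with positions and no level, and whether a list pools replicates is not given. The spread among replicates therefore could not be measured here, and no line was tested against another.

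The lists held 10778 distinct peaks in parental cells, 25180 in R100 cells, 21888 in R500 cells, 9595 in R1000 cells and 6820 in R4000 cells. They covered 1.63, 5.04, 4.53, 1.61 and 1.07 Mb, so that the R100 list covered 3.09 times and the R4000 list 0.658 times the parental length. The sequencing depth behind the lists is unknown, and depth and the amount of H3K27me3 cannot be told apart in the length of a list. Peak lists do not measure expression, so the B-cell label could be checked only through coverage of marker genes. In the parental line, peaks covered 0 of 8 B-cell marker genes, 1 of 6 T-cell genes and 2 of 5 myeloid genes, against 12.9% of protein-coding genes. In R100 the counts were 4, 3 and 2, against 34.2%, and Cd79a, Ms4a1 and Blk had no peak in any line.

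H3K27me3 covered Id1 and Id2 in all 5 lines, Id3 over short stretches in R100 and R500, and Id4 in no line. Of the 4 Id genes, 2 had at least 1 covered base in parental cells, against 9.72% of all annotated genes. The count was 3 in R100 cells (25.0% of all genes) and 3 in R500 cells (20.2%). It was 2 in R1000 cells (12.0%) and 2 in R4000 cells (10.4%). Coverage in all 5 lines was found in 5.24% of all genes, and coverage in no line, as at Id4, in 68.4%. Long genes offer more room for a peak. Among the 5855 protein-coding genes with a window of at most 10 kb, a background chosen after the data were seen, the shares covered were 7.29% in parental cells, 18.6% in R100 cells, 16.0% in R500 cells, 10.1% in R1000 cells and 8.49% in R4000 cells.

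**Figure D1:**
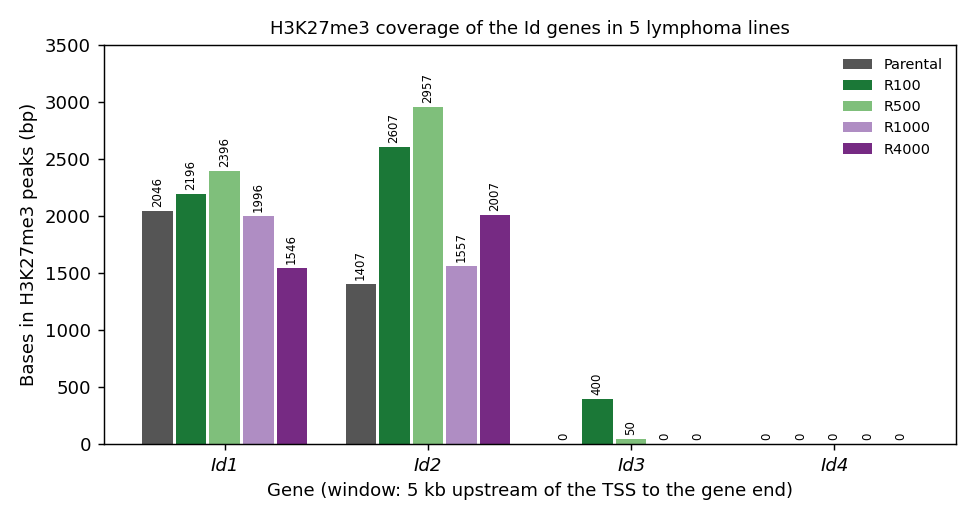
Bases in H3K27me3 peaks (bp, vertical axis) from 5 kb upstream of the TSS to the gene end of each Id gene, with 1 bar for each line and its value above the bar; error bars are absent because each line has 1 list, in which replicates may be pooled. Id1 and Id2 stand above 1400 bp in every line, Id3 reaches 400 bp in R100 cells, and Id4 is at 0.

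The sequences at the covered and uncovered parts of these genes are shown so that their content of CpG, the dinucleotide in which polycomb targets are often rich, can be seen beside the peaks. All were read from mm9, 5′ to 3′ on the strand of the gene, with each CpG in capitals. The first 3 are the 250 bases upstream of the annotated TSS, of Id1 (chr2:152561737-152561986, plus strand), Id2 (chr12:25780958-25781207, minus strand) and Id4 (chr13:48356546-48356795, plus strand). Those of Id1 lay in peaks over 250 bp in the parental, R100, R500 and R1000 lines and 236 bp in R4000 cells, and those of Id2 and Id4 over 0 bp in every line.
Id1 upstream: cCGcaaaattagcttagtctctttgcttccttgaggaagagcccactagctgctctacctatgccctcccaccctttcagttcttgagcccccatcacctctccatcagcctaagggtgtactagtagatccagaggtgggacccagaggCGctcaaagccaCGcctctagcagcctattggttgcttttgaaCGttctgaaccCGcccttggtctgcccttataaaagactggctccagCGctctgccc
Id2 upstream: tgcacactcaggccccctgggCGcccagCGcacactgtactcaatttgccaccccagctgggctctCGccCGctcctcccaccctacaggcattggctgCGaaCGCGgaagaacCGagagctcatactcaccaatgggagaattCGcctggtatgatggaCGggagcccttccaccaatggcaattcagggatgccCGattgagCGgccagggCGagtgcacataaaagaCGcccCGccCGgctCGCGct
Id4 upstream: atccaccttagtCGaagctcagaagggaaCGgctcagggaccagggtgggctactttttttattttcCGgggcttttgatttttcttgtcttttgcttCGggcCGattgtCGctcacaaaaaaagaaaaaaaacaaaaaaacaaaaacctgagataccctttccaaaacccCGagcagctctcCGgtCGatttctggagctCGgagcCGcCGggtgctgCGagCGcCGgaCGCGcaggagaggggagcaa

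The next 2 are stretches of the upstream region of Id2 that lay in peaks of all 5 lines, chr12:25785251-25785550 and chr12:25784651-25784950 on the minus strand. The last is the part of the R100 peak in Id3 that falls in coding sequence of the first exon, chr4:135699951-135700093 on the plus strand, which had no peak in the other 4 lines.
Id2 distal stretch: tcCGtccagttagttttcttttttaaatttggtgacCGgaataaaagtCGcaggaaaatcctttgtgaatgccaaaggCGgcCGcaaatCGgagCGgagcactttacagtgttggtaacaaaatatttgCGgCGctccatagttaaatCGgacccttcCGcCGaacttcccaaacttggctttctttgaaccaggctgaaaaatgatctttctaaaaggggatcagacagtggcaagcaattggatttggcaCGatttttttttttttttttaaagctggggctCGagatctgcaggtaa
Id2 second stretch: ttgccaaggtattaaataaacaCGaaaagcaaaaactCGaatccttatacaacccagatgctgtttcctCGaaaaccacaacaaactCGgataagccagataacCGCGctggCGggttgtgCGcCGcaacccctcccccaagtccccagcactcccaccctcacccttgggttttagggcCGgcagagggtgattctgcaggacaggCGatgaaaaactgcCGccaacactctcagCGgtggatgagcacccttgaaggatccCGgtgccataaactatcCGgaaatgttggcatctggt
Id3 coding stretch: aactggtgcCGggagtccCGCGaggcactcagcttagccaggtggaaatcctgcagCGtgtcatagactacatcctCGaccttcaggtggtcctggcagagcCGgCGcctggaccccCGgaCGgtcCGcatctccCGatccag

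The number of CpG in these 250 bases did not order the genes by their coverage. Id1, covered at its TSS, had 6 CpG there, and 59.5% of 22375 protein-coding promoters had at least as many. Id2 and Id4, uncovered there, had 18 and 17, reached by 25.5% and 27.9% of promoters. Id3 had 5 (63.9%). Within 500 bp on both sides of the TSS, the ratio of observed to expected CpG was 0.597 at Id1, 0.658 at Id2, 0.672 at Id3 and 1.06 at Id4. RefSeq places the start of Id3 325 bp downstream and that of Id4 311 bp upstream of the GENCODE start. Upstream of these starts, the 250 bases held 18 CpG at Id3 and 35 at Id4, a number reached by 3.41% of promoters, and no peak in any line. The E-box, written CANNTG and the same on both strands, was present in 63.5% of the promoters. It occurred 1 time upstream of Id2 and 0 times upstream of Id1, Id3 and Id4 in the 250 bases before the GENCODE start.

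Id1, which is expressed in many precursor cells and restrains their differentiation, carried H3K27me3 across its TSS and gene body. The gene (ENSMUSG00000042745.9) lies on chromosome 2 from 152561987 to 152563146 of mm9, on the plus strand. Its window was covered over 2046 bp in parental cells, 2196 bp in R100 cells, 2396 bp in R500 cells, 1996 bp in R1000 cells and 1546 bp in R4000 cells. R500 was the highest and R4000 the lowest, and the parental and R1000 lines were 50 bp apart, the width of 1 bin of the peak caller. In the parental line 136 of 37310 genes had more covered bases, in R100 cells 569 genes, in R500 cells 443, in R1000 cells 144 and in R4000 cells 130, without regard to window length.

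The length covered at Id1 in R100 and R500 was closer to the parental one than at most genes covered throughout. Relative to the parental line it was 1.07 times in R100 cells, 1.17 times in R500 cells, 0.976 times in R1000 cells and 0.756 times in R4000 cells. Over the 1954 genes covered in all 5 lines, the median ratios were 3.0, 2.84, 1.14 and 0.80 in the same order. Of these genes, 6.76% had a lower ratio than Id1 in R100 cells and 7.06% in R500 cells, while 37.5% did in R1000 cells and 47.6% in R4000 cells. In parental cells Id1 already had 2046 bp covered, 33.2% of its window, against a median of 450 bp over the 1954 genes. Its ratio therefore had less room to rise than that of a gene with little parental coverage, and the part of this in its rank was not tested. Of the 1160 bp of the gene itself, 1010 lay in peaks of the parental line. All 1160 bp were covered in R100, R500 and R1000, and 910 bp in R4000 cells. The coding sequence of 543 bp was covered whole in the parental, R100, R500 and R1000 lines and over 363 bp in R4000 cells.

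The peaks at the Id1 start differed in continuity. In R100 a single peak of 3000 bp ran from 436 bp upstream to 2563 bp downstream of the TSS, in R500 cells a peak of 2950 bp and in R1000 cells a peak of 2550 bp began at the same base. In the parental line the same stretch held 3 peaks of 1150, 1050 and 650 bp, parted by gaps of 150 and 200 bp. R4000 had peaks of 50, 650, 1050 and 400 bp there, with gaps of 150, 250 and 500 bp. In the window, 1246 bp were covered in all 5 lines and 3564 bp in none. The longest stretch common to all lines, of 650 bp, ran from 236 bp upstream to 413 bp downstream of the TSS. Of the bases covered in either line of a pair, 84.0% were covered in both R100 and R500 and 80.0% in both the parental line and R1000. The smallest share was that of the parental line and R4000, 56.4%.

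Separate H3K27me3 peaks lay further out around Id1, and relative to the parental line the other lines differed more outside its window than in it. From 11937 to 1636 bp upstream the parental line had no peak, and R4000 had none from 2613 to 12264 bp downstream. Within 50 kb of the TSS, peaks reached from 12.1 kb upstream to 30.0 kb downstream in parental cells and from 13.5 kb upstream to 45.9 kb downstream in R100 cells. They covered 7250 bp in parental cells, 14400 bp in R100 cells, 12850 bp in R500 cells, 6850 bp in R1000 cells and 5100 bp in R4000 cells. Outside the window of the gene, the covered length was 2.35 times the parental one in R100 cells, 2.01 times in R500 cells, 0.933 times in R1000 cells and 0.683 times in R4000 cells. The region downstream of Id1 holds the pseudogene Gm14162 and Cox4i2, a gene of a cytochrome c oxidase subunit whose TSS lies 17922 bp from that of Id1. The window of Cox4i2 was covered over 2700, 6550, 4750, 2100 and 1900 bp in the parental, R100, R500, R1000 and R4000 lines. These bases are a large part of the length outside the Id1 window, which was 5204, 12204, 10454, 4854 and 3554 bp in the same order. On the other side, H13 had 200 bp in R100 cells and no peak in the other 4 lines.

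**Figure D2:**
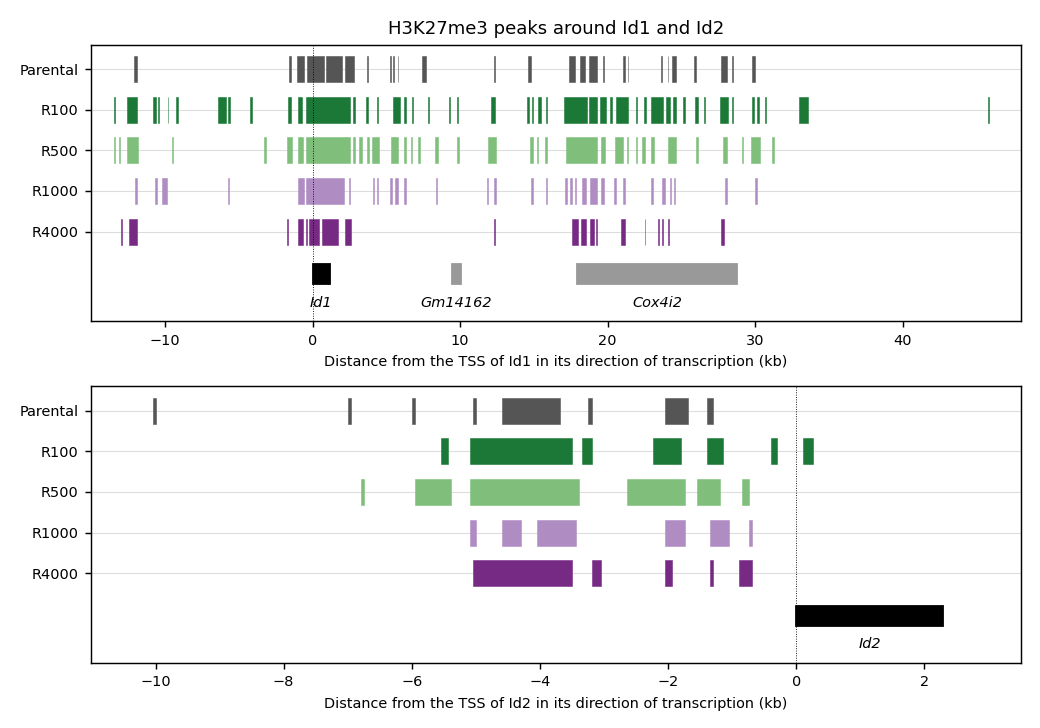
H3K27me3 peaks (coloured boxes, to scale) of the 5 lines around Id1 (upper panel) and Id2 (lower panel); the horizontal axis is the distance from the TSS in kb, negative upstream, black bars are the Id genes and grey bars the neighbouring genes. Peaks of all lines span the Id1 start, while those of Id2 lie upstream of it apart from a peak of 150 bp in R100 cells.

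Id2, which restrains E proteins in natural killer and other innate lymphoid cells and has to stay low for B-cell development, was marked upstream and not over its gene body. The gene (ENSMUSG00000020644.8) lies on chromosome 12 from 25778666 to 25780957, on the minus strand. Its window was covered over 1407 bp in parental cells, 2607 bp in R100 cells, 2957 bp in R500 cells, 1557 bp in R1000 cells and 2007 bp in R4000 cells. The parental line was the lowest and R500 the highest, and R4000 lay above R1000. R4000 covered 1.43 times the parental length, whereas the whole R4000 list covered 0.658 times. Of the 1954 genes covered in all 5 lines, 74.8% had a lower ratio than Id2 in R4000 cells, against 24.2% in R100 cells, 32.8% in R500 cells and 48.7% in R1000 cells. In R4000, 68 genes had more covered bases than Id2, against 259 in parental cells.

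All covered bases at Id2 lay in the 5 kb upstream, except for 150 bp of coding sequence in R100 cells, between 107 and 256 bp downstream of the TSS. The gene body of 2292 bp had no peak in the other 4 lines, and the 250 bases before the TSS, shown above, had none in any line. Between 5 and 4 kb upstream, 600 bp were covered in parental cells, 1000 bp in R100, R500 and R4000, and 350 bp in R1000 cells. In R4000 a single peak of 1550 bp, from 5043 to 3494 bp upstream, held most of the coverage. R100 had a peak of 1600 bp and R500 a peak of 1700 bp at the same place, where the widest peak of the parental line had 900 bp and that of R1000 600 bp. Between 2 and 1 kb upstream the order was another, with 407 bp in parental cells, 457 bp in R100 cells, 607 bp in R500 cells, 557 bp in R1000 cells and 107 bp in R4000 cells. The excess of R4000 over the parental line thus lay mainly between 5 and 3 kb upstream, where R4000 also covered 657 bp of the kilobase from 4 to 3 kb against 357 bp in parental cells.

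The 5 lines had 807 bp of the Id2 window in common, chiefly the pair of stretches printed above. These run from 4593 to 4294 bp and from 4043 to 3694 bp upstream, the second of them 350 bp long with its last 300 bases nearest the gene shown. They held 14 and 15 CpG in the 300 bases shown. In pairs of lines, the share of bases covered in both ran from 42.2% for R1000 and R4000 to 63.3% for R100 and R500, and all pairs but R100 and R500 lay below 56.4%, the lowest share at Id1. Unlike at Id1, few peaks lay beyond the window. Within 50 kb of the TSS, peaks outside the window covered 193 bp in parental cells, 193 bp in R100 cells, 693 bp in R500 cells, 93 bp in R1000 cells and 43 bp in R4000 cells, and Kidins220, the nearest gene on the side of the gene end, had no covered base in any line.

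Id3, a gene that antigen receptor signals induce in lymphocytes, had peaks in its window in R100 and R500 only. The gene (ENSMUSG00000007872.3) lies on chromosome 4 from 135699412 to 135701670, on the plus strand. Its window was covered over 400 bp in R100 cells and 50 bp in R500 cells, and over 0 bp in the parental, R1000 and R4000 lines. Coverage in R100 and R500 and in none of the other lines was found in 4.06% of all genes, and 0 bp in parental cells with at least 400 bp in R100 cells in 2.37%. The R100 peak, from 539 to 938 bp downstream of the TSS, covered 200 bp of coding sequence of the first 2 exons, 115 bp of intron and 26 bp of UTR, and 59 bp that are exonic only in a noncoding transcript. The R500 peak, from 1589 to 1638 bp downstream, lay in the UTR of the last exon. The pair of peaks shared no base, and the 5 kb upstream held no peak in any line.

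Beyond the window of Id3, the 4 resistant lines had peaks in regions where the parental line had none. The share of all genes with peaks in these 4 lines alone is not given here. Near 9 kb upstream, a peak of 300 bp lay in R100 cells, 450 bp in R500 cells, 100 bp in R1000 cells and 50 bp in R4000 cells. The R4000 peak, from 9311 to 9262 bp upstream, did not overlap that of R100, which began 9211 bp upstream. These peaks lie in the window of U6, a small nuclear RNA gene and the nearest annotated gene on that side. A further set lay in the 5′ part of E2f2, a gene of a cell-cycle transcription factor whose TSS is 28897 bp downstream of that of Id3. The window of E2f2 was covered over 400 bp in R100 and R500, 100 bp in R1000 cells, 150 bp in R4000 cells and 0 bp in parental cells. The nearest parental peak to Id3, of 100 bp, lay 17.2 kb upstream.

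**Figure D3:**
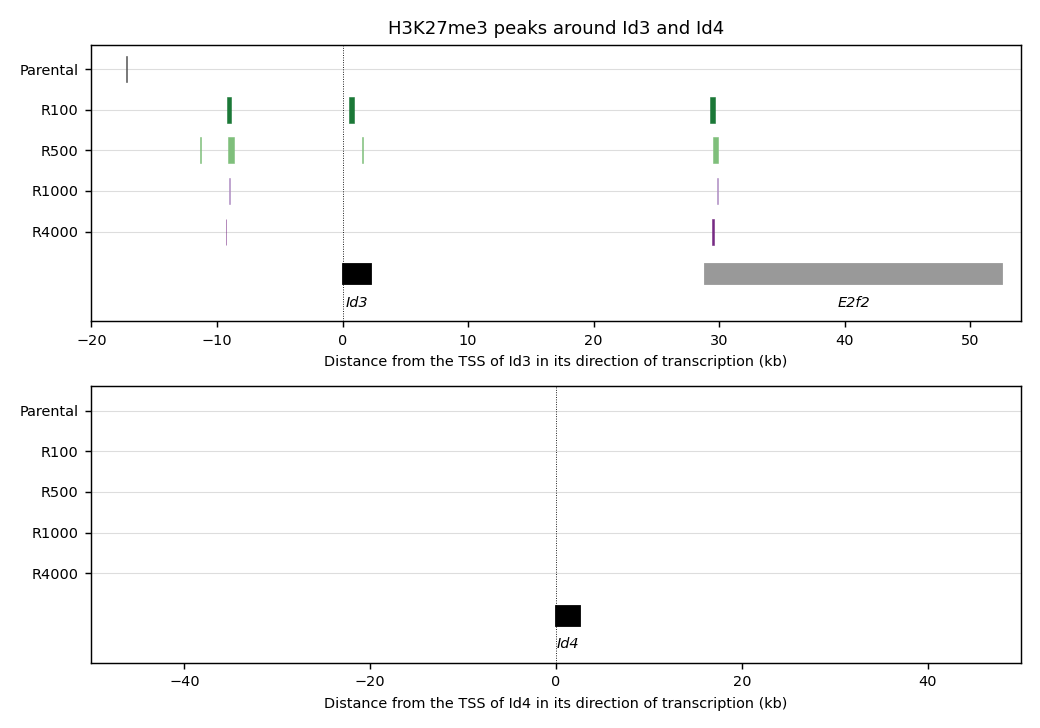
H3K27me3 peaks (coloured boxes, to scale) of the 5 lines around Id3 (upper panel) and Id4 (lower panel); the horizontal axis is the distance from the TSS in kb, negative upstream, black bars are the Id genes and the grey bar is E2f2. Id3 itself has 400 bp in R100 cells and 50 bp in R500 cells, and the panel of Id4 holds no peak of any line.

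Id4, the family member best known from neural precursors and germline stem cells, had no H3K27me3 peak in its window in any line. The gene (ENSMUSG00000021379.1) lies on chromosome 13 from 48356796 to 48359405, on the plus strand, and the noncoding RNA gene A330033J07Rik overlaps its start on the other strand. No peak of any line lay within 50 kb of the TSS. This was so for 43.7% of all annotated genes and for 19.1% of the 10211 protein-coding genes with a CpG-rich TSS (a ratio of observed to expected CpG of at least 0.6), to which Id4 belongs. The nearest peak was 327 kb away in parental cells, 267 kb in R100 and R1000, 355 kb in R500 cells and 398 kb in R4000 cells. The neighbours 4931429P17Rik, A330048O09Rik and Zfp169 also had 0 covered bases in all lines. A gene without a peak may carry the mark below the threshold of the peak caller. The study's methods set a p threshold on 50-bp bins for calling a promoter enriched and do not say whether the deposited lists were cut at it.

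The genes nearest to Id1 by the summed difference of their 5 covered lengths were Plxnd1, a semaphorin receptor gene (746 bp), Hjurp, a chaperone gene of the centromeric histone (1212 bp), and 2210011C24Rik (1226 bp). Plxnd1 was covered over 1850, 2300, 2450, 1700 and 1450 bp in the parental, R100, R500, R1000 and R4000 lines. For Id2 they were Gjc1, a connexin gene (1143 bp), Igf2bp1, an RNA-binding protein gene (1161 bp), and Dph1, a gene of diphthamide synthesis (1264 bp). Gjc1 was covered over 1450, 2550, 3200, 1850 and 1500 bp. For Id3, 5 genes tied at or below the third place and none is named. Likeness was taken over 5 lines and 22380 protein-coding genes, whose windows differ in length.

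Among the partners of the Id proteins, the E protein genes had little coverage. Tcf3, which encodes E2a, was covered over 200 bp in R100 cells and 300 bp in R500 cells and over 0 bp in the parental, R1000 and R4000 lines, in a window of 29.1 kb. Tcf12, which encodes HEB, was covered in every line, over 50, 500, 450, 250 and 200 bp in the order parental, R100, R500, R1000, R4000, in a window of 273 kb. Tcf4, which encodes E2-2, had no peak in any line in a window of 349 kb. Of the 3 genes, 1 was thus covered in parental cells against 12.9% of protein-coding genes, 2 in R100 cells (34.2%), 2 in R500 cells (27.2%), 1 in R1000 cells (16.1%) and 1 in R4000 cells (14.0%).

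The tissue-restricted bHLH genes whose products pair with E proteins were covered at 1 of 8 loci in parental cells, 4 in R100 cells, 4 in R500 cells, 3 in R1000 cells and 2 in R4000 cells, in windows of 6.87 to 20.3 kb. The shares of protein-coding genes were 12.9, 34.2, 27.2, 16.1 and 14.0% in the same order, and the parental count of 1 in 8 is about that share. Tal1, a regulator of blood stem and erythroid cells, had the most, with 2550, 5600, 6150, 3550 and 3900 bp in the same order. Tal2 was covered over 650 bp in both R100 and R500 cells and 100 bp in R1000 cells. Lyl1, a relative of Tal1, was covered over 450, 400, 150 and 150 bp in the R100, R500, R1000 and R4000 lines. The parental line had no peak at Tal2 or Lyl1, and Msc, Myf5, Myf6 and Myog had none in any line.

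Of 11 genes of BMP receptors and Smad proteins, which act upstream of Id genes, 4 were covered in parental cells, 5 in R100 cells, 4 in R500 cells, 4 in R1000 cells and 5 in R4000 cells, against 12.9, 34.2, 27.2, 16.1 and 14.0% of protein-coding genes. The other 6 were covered in no line, which is near the share of 57.2% among protein-coding genes, and the windows of the list run from 21.8 to 337 kb. Smad6, an inhibitory Smad, was covered over 1650, 5050, 3900, 1450 and 1600 bp in the parental, R100, R500, R1000 and R4000 lines. Bmpr2, a type II BMP receptor gene, was covered over 2550, 2450, 3300, 1800 and 1900 bp, and Bmpr1a, a type I receptor gene, over 350, 1250, 1400, 1000 and 350 bp. The genes of the signalling Smads, Smad1, Smad4, Smad5 and Smad9, had no peak in any line.

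The other HLH repressors, of the Hes, Hey and Bhlhe families, were covered at 7 of 11 loci in parental cells, 11 in R100 cells, 11 in R500 cells, 9 in R1000 cells and 9 in R4000 cells. The shares of protein-coding genes were 12.9, 34.2, 27.2, 16.1 and 14.0%, and the windows of the list run from 6.45 to 21.3 kb. Heyl, an effector of Notch signalling, was covered over 1500, 3700, 4600, 650 and 1600 bp, Hey1 over 1750, 3000, 2650, 2300 and 1050 bp, and Bhlhe40, a repressor of clock genes, over 750, 2500, 2250, 1600 and 800 bp. Their median over the 11 genes was 550 bp in parental cells, 1450 bp in R100 cells, 1500 bp in R500 cells, 650 bp in R1000 cells and 300 bp in R4000 cells. The median over the 4 Id genes was 703.5, 1298, 1223, 778.5 and 773 bp in the same order, a middle value between the 2 covered and the 2 uncovered or barely covered genes.

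**Figure D4:**
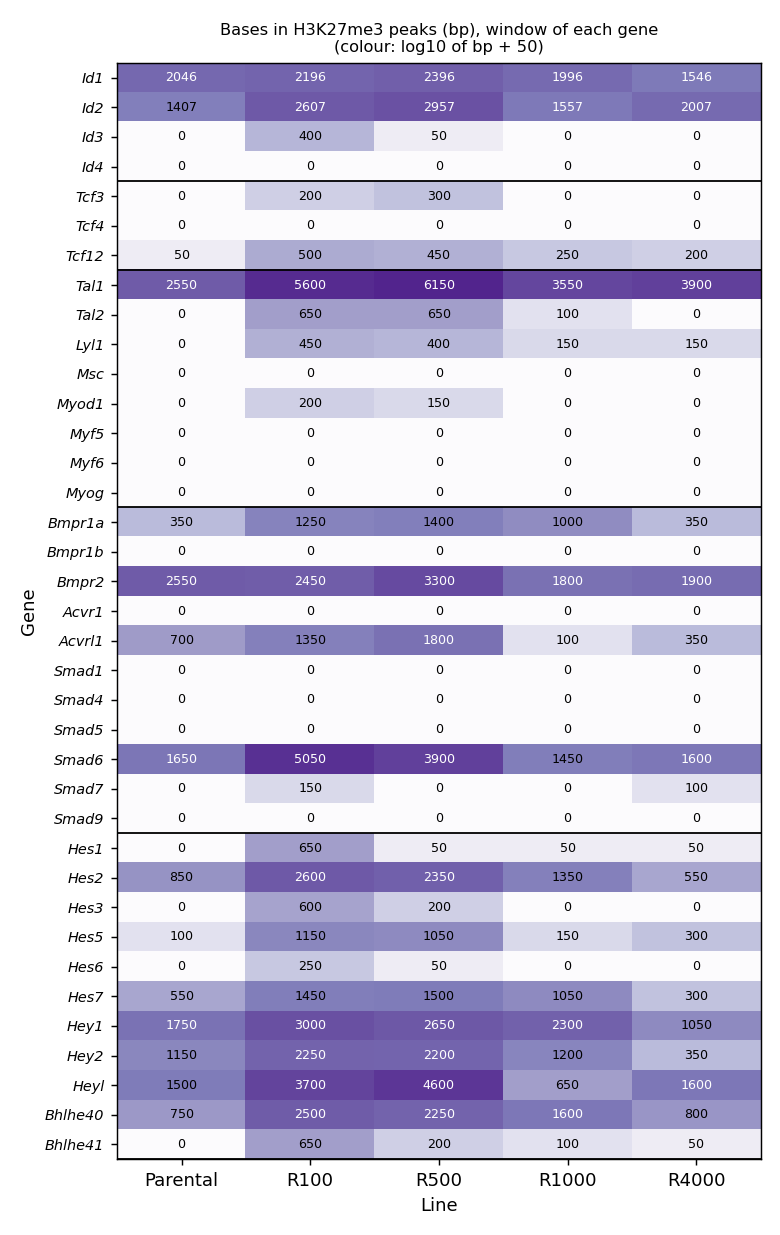
Bases in H3K27me3 peaks (bp, printed in each cell and coloured on a log10 scale of bp + 50) for the Id genes, E proteins, class II bHLH partners, BMP and Smad genes and other HLH repressors (rows, groups parted by lines) in the 5 lines (columns). The rows of Tal1, Smad6 and Heyl hold the largest values, and those of Id4, Tcf4 and 4 of the 8 class II bHLH genes are at 0 throughout.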

How the data were processed

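H3K27me3 ChIP-seq peak lists of 5 lines were analysed, with 1 list per line. The authors sequenced immunoprecipitated and input libraries in 50-bp reads and compared both in windows along the genome with Poisson statistics to call peaks. The submitters' processing notes name Bowtie and mm9 without giving a role. The values the authors deposited are the first and last base of each peak, 1-based, with no count or score. The authors describe biological replicates, and for promoter classes they required several 50-bp bins past a p threshold within 5 kb upstream of the TSS. Whether the deposited lists pool replicates or were made with that threshold, and their depth, are not given in the sources used here, which limits every comparison between lines. Every peak occurs 2 times in the R100 and R500 lists and was counted once. No peak lay past a chromosome end of NCBIM37 (mm9).

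Covered bases were computed for 37310 genes with Python 3.11.15, pandas 2.3.3 and numpy 2.4.6. The computation was tested on simulated data, where 0 of 2000 intervals differed from a base-by-base count. Sequence was read with pysam 0.24.0, and figures were drawn with matplotlib 3.10.9. RefSeq promoter sequences of GRCm38.p6 were available for 3 of the 4 Id genes, with none for Id1, and were placed on mm9 by exact match.

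The Id genes and the lists were chosen with earlier results of these data known. Named are the members, most of their nearest neighbours, the E proteins and the 3 genes of each other list with the most covered bases over all lines. Up to 3 genes nearest in covered length are also named, unless more tied. Other genes named, such as those with no peak, were chosen after their values were seen. The alternatives were other windows, peak widths, joined peaks, lists cut to an equal number of their widest peaks, other minimums and other background genes. No test was made.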

Additional observations from a re-analysis of the deposited data

Results flagged for a closer look

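The lines lay on both sides of the parental line in the covered length of Id1. R100 covered 150 bp and R500 350 bp more than the parental line, and R1000 had a difference of -50 bp and R4000 of -500 bp. With 1 list per line, the difference between the lines was not tested. The whole lists lay on the same sides, with 3.09, 2.78, 0.988 and 0.658 times the parental length in R100, R500, R1000 and R4000, and their part in the result was not tested.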

How the results depend on the processing

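Of 90 numbers of Id genes per line or of lines per gene recomputed under the alternatives, 79 stayed within 1.5 times the reported number. A fall from 3 genes to 2 counts as within this limit. The count in R500 cells fell so, for example, with peaks at least 100 bp wide, with the 6820 widest peaks of each list and with at least 150 bp required. Lists of equal number were made by width, so this alternative also drops narrow peaks and does not match the lists in depth. In the gene body alone, 1 Id gene was covered in the parental, R1000 and R4000 lines. Id2 was covered there in 1 line, as its other peaks lie in the upstream part that this window leaves out. Id3 was covered in 0 lines with the 5 kb upstream only, with peaks at least 500 bp wide and with at least 500 bp required. It was covered in 1 line with peaks at least 100 bp wide, with the 6820 widest peaks of each list and with at least 150 bp required. With 10 kb on both sides of the gene, Id3 was covered in 4 lines. Id4 was covered in 0 lines under every alternative run, and these counts are among the 79. They could not change, because the nearest peak of any line lay 267 kb away and no alternative reached more than 10 kb beyond the gene.

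For 96 covered lengths of Id1, Id2 and Id3 in resistant lines, the covered share of the window was set against the reported share. The yardstick was the 95% binomial (Wilson) interval of the reported share, counted in 50-bp bins. Neighbouring bins of a peak are not independent, so the interval does not measure the spread among replicates. By it, 44 lay within, 47 lay outside without passing to the other side of the parental line, and 5 changed sides. A share can also move with the length of the window alone. Id2 in R500 cells kept its 2957 bp in the 5 kb upstream only, and Id3 in R100 cells its 400 bp in the gene body, and both count as outside. Id1 in R1000 had 1160 bp in the gene body and 1596 bp in peaks at least 500 bp wide, above the parental 1010 and 1396 bp. Id1 in R4000 had 2896 bp with peaks within 1000 bp joined, above 2796 bp. Id2 in R4000 had 307 bp in a window of 2 kb to either side of the TSS, below 407 bp, and Id2 in R1000 had 600 bp in peaks at least 500 bp wide, below 900 bp. The direction in R1000 and R4000 therefore depended on the window or the peaks counted, and the cause was not tested.

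The background share depended on the genes counted. Among protein-coding genes it was 12.9, 34.2, 27.2, 16.1 and 14.0% in the parental, R100, R500, R1000 and R4000 lines. With a CpG-rich TSS it was 17.4, 50.5, 39.2, 24.0 and 21.9%, and with a window of at most 10 kb, added after seeing the data, 7.29, 18.6, 16.0, 10.1 and 8.49%. No paired analysis was possible because each line has 1 list. The depth is unknown, so that an uncovered gene is not shown to lack the mark.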
